A study of Mus musculus with 5 samples.

Results

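CC chemokines are small secreted proteins with an adjacent pair of cysteines that bind receptors on leukocytes and steer these cells into tissue. In the injured liver, hepatic stellate cells (HSC), resident macrophages and lymphocytes are all known to release them. Ccl2 and Ccl7 draw monocytes through the receptor Ccr2, Ccl11 and Ccl24 draw eosinophils through Ccr3, Ccl3, Ccl4 and Ccl5 act on macrophages and T cells, Ccl19 guides dendritic and T cells through Ccr7, and Ccl6 acts through Ccr1. These 9 genes, taken by name from the 31053 genes counted, were followed through every single-cell library of the series.

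Cells were sorted from livers of male Rosa26mTmG mice carrying Col1a1-Cre on the C57BL/6J background, after perfusion with pronase and collagenase. In all of them GFP marks a cell whose Col1a1 promoter has driven Cre at some time, also if Col1a1 is silent when the cell is sorted, and vitamin A autofluorescence (VitA) marks HSC that store retinoid. The mice received diethylnitrosamine (DEN), a liver carcinogen, at 10 mg/kg when 2 weeks old and then, from 6 weeks of age, a liquid Western alcohol diet (WAD) with 3.5% v/v ethanol for 5 months, while the chow animals received saline and chow. The 5 libraries are VitA+Col1a1+ and VitA-Col1a1+ cells of DEN+WAD livers, the same gates of chow livers, plus 1 more, from DEN+WAD livers, that carries the label VitA-Col1a1-. How many animals each library pools is not given in the sources used here.

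Each group held 1 library, so no replicate spread could be had and no test was made. Levels are counts of UMIs (unique molecular identifiers, a tag that stands for 1 captured 3′ end) in a library or cell class per 1e+06 of its UMIs, written CPM, with exact Poisson 95% intervals. Ratios carry exact conditional binomial 95% intervals and shares of cells exact Clopper-Pearson ones, and all of them cover counting error only. Differences in recovery between genes were not corrected, so the members are compared between libraries and not ranked against each other.

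The libraries held 10481, 2729, 259, 668 and 9870 cells in the order just given, from 6145748 UMIs in VitA+Col1a1+ chow to 149936344 in VitA+Col1a1+ DEN+WAD, at median depths of 9105.5 to 24077 UMIs per cell. No doublet caller was run, and 48 barcode sequences occurred in 2 libraries. The marker genes bear out the gates in part. Summed CPM over 8 stellate markers were 25063, 10493, 24339, 4779 and 5483, and over 6 fibroblast markers 666.3, 6447, 264.7, 12597 and 2452, so the VitA-Col1a1+ gate holds fibroblast RNA that the VitA+ gate nearly lacks, and more of it in chow. The library labelled VitA-Col1a1- held Col1a1 RNA at 1062 CPM, above the 304 of VitA+Col1a1+ DEN+WAD, against its label. Ptprc, the pan-leukocyte gene, and Cd3e had 0 UMIs in all 4 Col1a1+ libraries, where the 8 macrophage markers summed to 2.28 to 3.33 CPM against 3720 in the library labelled VitA-Col1a1-.

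In the GENCODE M21 annotation of GRCm38 all 9 genes are protein-coding, and 7 of them lie on chromosome 11 in 2 groups. Ccl2 (82035571-82037453), Ccl7 (82045712-82047525) and Ccl11 (82057823-82062955) follow each other on the plus strand with gaps of 8.26 and 10.3 kb. Farther along are Ccl5 (83525778-83530518), Ccl6 (83587882-83593087) and Ccl3 (83647844-83649355) on the minus strand and Ccl4 (83662584-83664683) on the plus strand, 13.2 kb from Ccl3. Ccl19 lies on chromosome 4 (42754525-42756577, minus strand) and Ccl24 on chromosome 5 (135569937-135573049, minus strand). A second gene identifier that carries the symbol Ccl19 had 0 UMIs in every library and was left out.

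Ccl3 had 0 UMIs in the Col1a1+ libraries, Ccl6 was low there (at most 6.53 CPM), and both were high in C1qa-positive cells. The 250 bases before their RefSeq start are shown for that reason. The windows are from the RefSeq promoter table of GRCm38.p6, which matched 3 of the 9 members (Ccl3, Ccl6 and Ccl19), and read 5′ to 3′ on the gene's own strand, with capitals on a matched motif. Both are on the minus strand, Ccl3 at chr11:83649379-83649628 and Ccl6 at chr11:83593088-83593337.
Ccl3: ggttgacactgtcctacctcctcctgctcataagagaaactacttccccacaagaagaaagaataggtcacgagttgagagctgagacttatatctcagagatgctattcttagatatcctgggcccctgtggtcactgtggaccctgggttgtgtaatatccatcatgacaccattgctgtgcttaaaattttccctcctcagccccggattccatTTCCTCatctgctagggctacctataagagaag
Ccl6: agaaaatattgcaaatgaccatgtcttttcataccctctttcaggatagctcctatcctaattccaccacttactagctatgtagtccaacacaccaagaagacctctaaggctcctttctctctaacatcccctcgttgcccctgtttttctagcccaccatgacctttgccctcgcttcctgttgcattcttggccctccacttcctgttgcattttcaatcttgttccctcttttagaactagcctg
Both strands were searched for 4 motifs, namely the NF-kB consensus, AP-1 (TGANTCA), the TATA box (TATAAA) and PU.1 (GAGGAA). The Ccl3 window held 1 match, PU.1 on the antisense strand 33 to 28 bases before the start, and the Ccl6 window held none of the 4. Over 32851 promoters of the same length, 7.25% held the NF-kB consensus, 6.75% AP-1, 12.4% TATA and 23.3% PU.1. A match is a description of letters and was not tied to binding of a factor.

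The level of Ccl2 reached 609.6 CPM (VitA+Col1a1+) and 306.4 (VitA-Col1a1+) in the DEN+WAD libraries, 174.6 in VitA+Col1a1+ chow, 84.8 in VitA-Col1a1+ chow and 327.4 in that labelled VitA-Col1a1-. It was higher in DEN+WAD than in chow in both gates. The ratio was 3.49 (3.29 to 3.71) in the VitA+ gate and 3.62 (3.41 to 3.83) in the VitA- gate. Within either diet the VitA+ gate held more Ccl2 than the VitA- gate, with a VitA- over VitA+ ratio of 0.485 (0.447 to 0.527) in chow and 0.503 (0.494 to 0.512) in DEN+WAD. A library sum mixes the share of cells that make a transcript with the amount in each, and the 2 cannot be told apart from the sum alone.

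Ccl7, the neighbour of Ccl2 and a ligand of the same receptor, was at 66.1 CPM (VitA+Col1a1+) and 98.9 (VitA-Col1a1+) in the DEN+WAD libraries, 17.6 in VitA+Col1a1+ chow, 63.8 in VitA-Col1a1+ chow and 45.7 in that labelled VitA-Col1a1-. The VitA+Col1a1+ chow library stood lowest, with 108 UMIs in all. DEN+WAD over chow was 3.76 (3.11 to 4.59) in the VitA+ gate and 1.55 (1.45 to 1.66) in the VitA- gate, the latter not past 2-fold. In contrast to Ccl2, Ccl7 in chow was 3.63-fold (2.97 to 4.47) higher in the VitA- than in the VitA+ gate.

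**Figure D1:**
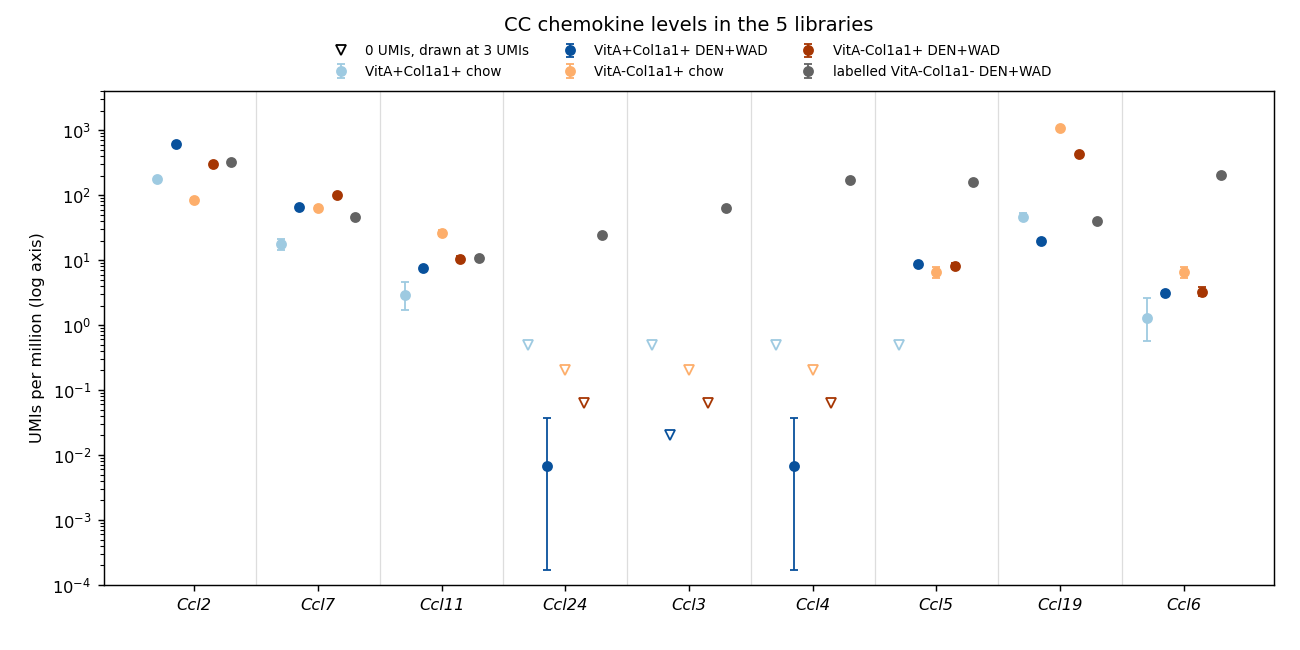
Level of each CC chemokine (CPM, log axis) in the 5 libraries, 1 point per library with its exact Poisson 95% interval, which covers counting error only. Ccl24, Ccl3 and Ccl4 had 0 or 1 UMI in the 4 Col1a1+ libraries, while Ccl19 was highest in the VitA-Col1a1+ chow library at 1097.

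The eosinophil chemoattractant Ccl11 was at 7.48 CPM (VitA+Col1a1+) and 10.5 (VitA-Col1a1+) in the DEN+WAD libraries, 2.93 in VitA+Col1a1+ chow, 26.3 in VitA-Col1a1+ chow and 10.9 in that labelled VitA-Col1a1-. The 2 chow gates were the extremes, and the 2.93 rests on 18 UMIs. DEN+WAD over chow stood at 2.55 (1.61 to 4.33) in the VitA+ gate and 0.400 (0.350 to 0.458) in the VitA- gate. Ccl24, the other Ccr3 ligand, had 1 UMI in VitA+Col1a1+ DEN+WAD, 0 in the other 3 Col1a1+ libraries and 2600 (24.6 CPM) in the library labelled VitA-Col1a1-.

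Ccl3 and Ccl4, chemoattractants of macrophages and T cells, had 0 UMIs in the 4 Col1a1+ libraries, apart from 1 UMI of Ccl4 in VitA+Col1a1+ DEN+WAD. In the library labelled VitA-Col1a1- their levels were 63.0 and 173.0 CPM. The 3-UMI floor puts the Col1a1+ library with the most UMIs under 0.0200 CPM and that with the fewest under 0.488. Ccl5 was at 8.62 CPM (VitA+Col1a1+) and 8.10 (VitA-Col1a1+) in the DEN+WAD libraries, 0 in VitA+Col1a1+ chow, 6.47 in VitA-Col1a1+ chow and 157.9 in that labelled VitA-Col1a1-. For the VitA+ gate the 3-UMI floor in chow sets the ratio of Ccl5 between diets at 17.7 or more. This bound counts UMIs and leaves out their clustering, since 18 cells held 50% of them in DEN+WAD. After thinning to 5000 UMIs per cell, described further on, 1.06% of DEN+WAD cells held Ccl5. The 0 of 254 chow cells have an upper limit of 1.44%, which takes that share in. Unthinned, the DEN+WAD share was 2.02%, above the same limit. In the VitA- gate the ratio of Ccl5 was 1.25 (1.0004 to 1.58), and single cells hold most of it as given further on.

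The lymphoid chemokine Ccl19 was at 19.6 CPM (VitA+Col1a1+) and 430.8 (VitA-Col1a1+) in the DEN+WAD libraries, 46.5 in VitA+Col1a1+ chow, 1097 in VitA-Col1a1+ chow and 39.9 in that labelled VitA-Col1a1-. It was the only member lower in DEN+WAD than in chow past 2-fold in both gates, at 0.422 (0.374 to 0.478) in the VitA+ gate and 0.393 (0.385 to 0.401) in the VitA- gate. The difference between gates was larger than that between diets, since the VitA- gate held 23.6-fold (20.97 to 26.6) more in chow and 21.9-fold (21.1 to 22.8) more in DEN+WAD. Summed fibroblast markers were also higher in the VitA- gate within each diet, and in the VitA- gate higher in chow. In the VitA+ gate they ran against Ccl19, at 666.3 CPM in DEN+WAD and 264.7 in chow, and their part was not tested.

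Ccl6, known from macrophages and other myeloid cells, was at 3.07 CPM (VitA+Col1a1+) and 3.25 (VitA-Col1a1+) in the DEN+WAD libraries, 1.30 in VitA+Col1a1+ chow, 6.53 in VitA-Col1a1+ chow and 203.3 in that labelled VitA-Col1a1-. The Col1a1+ values are low, and that of VitA+Col1a1+ chow rests on 8 UMIs. DEN+WAD over chow was 2.36 (1.19 to 5.49) in the VitA+ gate and 0.498 (0.384 to 0.648) in the VitA- gate.

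Counted over the family, 6 of the 9 members reached a mean of 2 CPM over the 2 libraries of each comparison, and Ccl24, Ccl3 and Ccl4 reached it in none. In the VitA+ gate all 6 that reached it were past 2-fold, 5 higher and Ccl19 lower in DEN+WAD, against 6.33% of 11015 genes (1.85% higher and 4.48% lower). In the VitA- gate 4 of the 6 were, with Ccl2 higher and Ccl11, Ccl19 and Ccl6 lower, against 11.3% of 11746 genes (5.33% higher and 5.94% lower). In the VitA+ gate Ccl5 (8.62 against 0 CPM in chow) and Ccl6 (3.07 against 1.30) reached that mean only through DEN+WAD. Their calls there are thus tied to their entry. The median log2 ratio of the 6, which takes them in, was 1.58 in the VitA+ gate and -0.34 in the VitA- gate, beside -0.08 and -0.03 over all genes compared. With factors that centre the bulk of genes (TMM), the log2 ratios of the VitA+ gate rise by 0.19 and those of the VitA- gate by 0.08, and Ccl6 in the VitA- gate is then at -0.93, no longer past 2-fold.

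**Figure D2:**
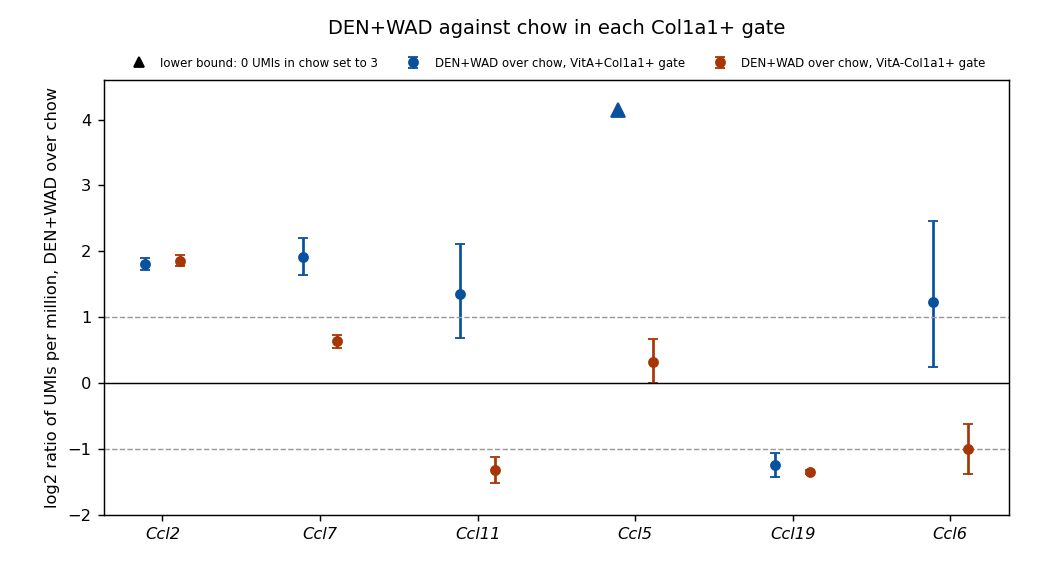
Log2 ratio of CPM, DEN+WAD over chow, for the 6 members that passed the level filter, in the VitA+Col1a1+ gate (blue) and the VitA-Col1a1+ gate (orange), with exact 95% counting intervals and dashed lines at 2-fold. Ccl2, Ccl7 and Ccl5 lie above 0 in both gates, Ccl19 below it in both, and Ccl11 and Ccl6 on opposite sides. The triangle is the lower bound of Ccl5, which had 0 UMIs in VitA+Col1a1+ chow. That bound does not cover the clustering of UMIs in few cells.

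Between gates within chow, 5 of the 6 members were past 2-fold higher in VitA- than in VitA+ cells and Ccl2 was lower, against 18.2% of 11561 genes (12.5% higher and 5.75% lower). Ccl5 and Ccl6 reached the level filter there only through the VitA- gate, so their calls are tied to their entry. Apart from Ccl19 and Ccl7, Ccl5 was at least 13.25-fold higher, all of it in 1 cell as given further on, Ccl11 8.97-fold (5.60 to 15.3) and Ccl6 5.02-fold (2.45 to 11.95). In VitA-Col1a1+ chow 3 cells held 50% of the Ccl11 UMIs, and 6 cells 50% of those of Ccl6. Within DEN+WAD only Ccl19 was past 2-fold higher, against 12.4% of 11418 genes (10.7% higher and 1.71% lower). TMM factors move the log2 ratios of that comparison by -0.20, which puts Ccl2 past 2-fold lower as well. On the plain scale Ccl7 was at 1.498, Ccl11 at 1.41, Ccl6 at 1.06 and Ccl5 at 0.940. These comparisons use the same 4 libraries as those between diets and add no independent samples.

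The VitA- gate holds cells of unlike kinds, so it was divided by 2 fibroblast genes, Mgp and Dpt, a division chosen after seeing the data. Cells with 3 or more UMIs of either numbered 1192 of 2729 in DEN+WAD and 510 of 668 in chow, and cells with 0 of both numbered 905 and 85. Ccl19 stood at 696 CPM in the Mgp or Dpt cells and 145 in the cells without them in DEN+WAD, and at 1130 and 782 in chow. Ccl7 was also higher in the Mgp or Dpt cells, at 120 against 54.9 in DEN+WAD and 74.8 against 9.51 in chow. Ccl2 ran the other way, at 218 against 391 in DEN+WAD and 87.7 against 126 in chow.

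Within these cells the ratios between diets differed from those of the whole gate. The log2 ratio of Ccl19 was -0.70 in Mgp or Dpt cells, not past 2-fold, and -2.43 in cells without them, beside -1.35 in the whole gate. Ccl7 was at 0.68 and 2.53, beside 0.63. Ccl2 stayed past 2-fold in both, at 1.32 and 1.63. Ccl11 was at -1.06 in Mgp or Dpt cells and 0.99 in the others, and Ccl6 at -0.88 and 0.089. In the cells without Mgp and Dpt, chow held 3 UMIs of Ccl11 and 3 of Ccl6 in 85 cells, so these last ratios give no direction. Heat-shock genes also differed between the diets in this gate, with Hspa1a at 4.09-fold and Hspa1b at 4.06-fold in DEN+WAD, a pair of near-identical genes among which reads could be divided, and their part in the chemokine ratios was not tested.

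Much of some members came from few cells. In VitA+Col1a1+ DEN+WAD, Ccl2 was found in 5698 of 10481 cells and 261 cells held 50% of its UMIs. In VitA-Col1a1+ chow, by contrast, 1 cell held 531 of the 1271 Ccl2 UMIs (41.8%), and that same cell, with 36012 UMIs, 344 of Dpt and 0 of Lrat, held 314 of the 957 Ccl7 UMIs. In VitA-Col1a1+ DEN+WAD the top cell was likewise the same for both, with 1160 of 14596 Ccl2 UMIs and 502 of 4712 Ccl7 UMIs, but it carried 25 Lrat UMIs and 0 of Dpt. Without the highest cell of each library, the log2 ratio between diets in the VitA- gate was 2.51 for Ccl2 and 1.04 for Ccl7, which put Ccl7 past 2-fold.

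Ccl5 and Ccl11 rested on fewer cells still. All 97 Ccl5 UMIs of VitA-Col1a1+ chow lay in 1 cell of 135909 UMIs, which also held 2037 Col1a1 and 1600 Mgp UMIs. In VitA-Col1a1+ DEN+WAD, 305 of the 386 Ccl5 UMIs (79.0%) lay in 1 cell. Without those cells the log2 ratio of Ccl5 in the VitA- gate was at least 3.08, because chow was then at 0. In VitA+Col1a1+ DEN+WAD, Ccl5 was found in 209 cells, of which 207 (99.04%) had an Lrat UMI, beside 97.1% of all cells of that library, and 18 cells held 50% of it. Ccl11 in the same library rested on 5 cells for 50% of its UMIs, 261 of 1122 being in 1 cell, and without the highest 1% of cells of each library its log2 ratio between diets in the VitA+ gate was -0.0018. Ccl5 in that gate was then at 0.57 as a lower bound. Ccl19 was spread more evenly, with 107 cells holding 50% of it among the 587 positive cells of 668 in VitA-Col1a1+ chow.

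**Figure D3:**
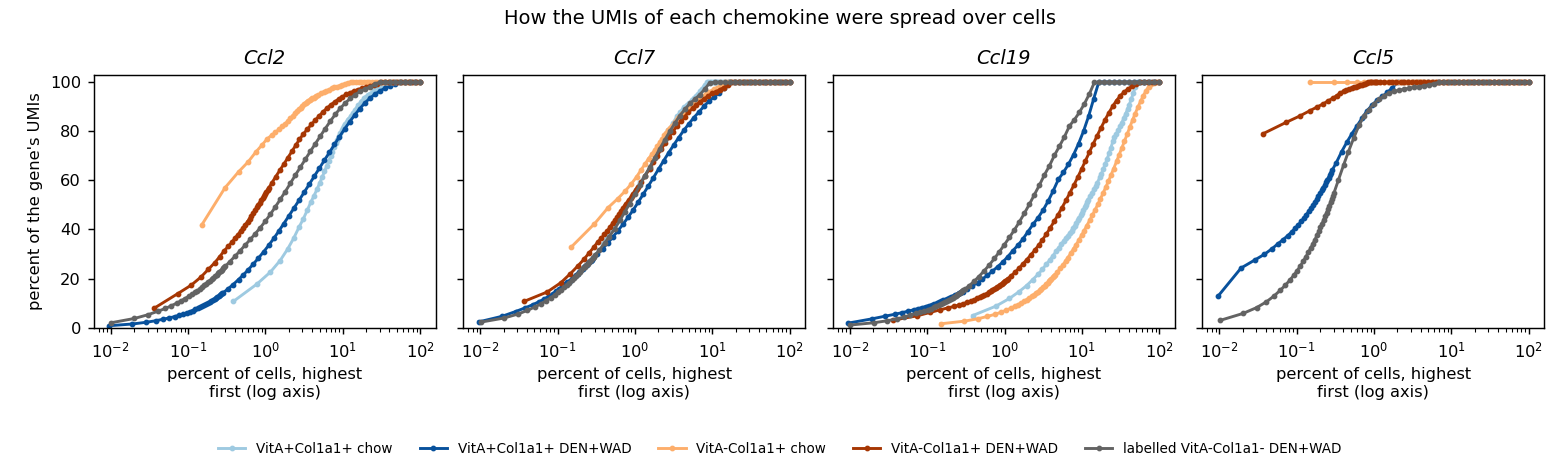
Cumulative percent of a member's UMIs (vertical axis) against the percent of cells, ranked from the highest down (log axis), for Ccl2, Ccl7, Ccl19 and Ccl5 in each library. Ccl19 in VitA-Col1a1+ chow climbs late, with 7.08% of its UMIs in the highest 1% of cells, while Ccl5 in the same library is complete with the first cell.

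Shares of positive cells were compared after each cell with 5000 or more UMIs was thinned at random to 5000. For Ccl2 the share was 39.0% (38.0 to 39.9) (VitA+Col1a1+) and 17.6% (16.1 to 19.1) (VitA-Col1a1+) in the DEN+WAD libraries, 22.4% (17.5 to 28.1) in VitA+Col1a1+ chow, 7.31% (5.42 to 9.60) in VitA-Col1a1+ chow and 23.2% in that labelled VitA-Col1a1-. Unthinned, the shares were 55.2%, 32.0%, 39.4%, 12.1% and 33.4%. Cells of the last library with a Cd3e UMI and none of Lrat, Pecam1 or C1qa, a type not known for Ccl2, gave 3.23% (0.0816 to 16.7; 1 of 31 cells, median 6847 UMIs before thinning, below the library medians given above). The share with Ccl2 was thus higher in the DEN+WAD library than in the chow library of both gates. The intervals cover the counting of cells in 1 library each and no spread between animals. The share of VitA-Col1a1+ chow lies within the interval of the reference, and the interval of VitA-Col1a1+ DEN+WAD overlaps it.

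For Ccl19 the thinned shares were 7.56% (7.05 to 8.09), 42.4% (40.5 to 44.3), 19.7% (14.98 to 25.1), 80.4% (77.1 to 83.4) and 11.03% (10.3 to 11.8) in the same order, and unthinned 16.5%, 59.3%, 52.0%, 89.9% and 18.4%. The reference share in Cd3e cells was 6.45% (0.791 to 21.4; 2 of 31 cells). Its wide interval takes in the shares of both VitA+Col1a1+ libraries and of the library labelled VitA-Col1a1-, so it cannot tell them from background. Cells of the latter library with a Pecam1 UMI and none of Lrat, C1qa or Cd3e had a share of 0.680% (0.312 to 1.29; 9 of 1323 cells), below all of these. The 2 VitA-Col1a1+ libraries stand above the Cd3e reference too, chow the higher.

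For Ccl7 the thinned shares were 9.43%, 9.99%, 5.51%, 6.53% and 7.17%. The Cd3e reference of 6.45% (0.791 to 21.4; 2 of 31 cells) is too small to tell any of them from background. In the Pecam1 cells just described the share was 1.21% (0.693 to 1.96; 16 of 1323 cells), below all 5. Ccl11 was found in 1.92%, 1.63%, 0.787%, 2.80% and 1.35% of cells, and the reference of 0 of 31 cells, with an upper limit of 11.2%, is too small to set against them. Shares of Ccl5 in the Col1a1+ libraries, at 1.06%, 0.544%, 0% and 0.156%, were below the 2.57% of Pecam1-positive reference cells (1323 cells, median 8311 UMIs), and those of Ccl6, at 1.34%, 1.32%, 0.394% and 1.71%, below the 3.23% of the Cd3e reference. By that measure they are not told from background, although the Cd3e reference is 1 of 31 cells and both references come from a library rich in leukocyte RNA.

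Ccl24, Ccl3 and Ccl4 were found after thinning in 0 of 10213, 2572, 254 and 643 cells of the Col1a1+ libraries. A count of 0, taken as up to 3 cells, allows shares of up to 0.0294%, 0.117%, 1.18% and 0.467% of cells with a UMI, and the upper Clopper-Pearson limits are 0.0361%, 0.143%, 1.44% and 0.572%. Unthinned, 1 cell of VitA+Col1a1+ DEN+WAD held Ccl24 and 1 held Ccl4. In the library labelled VitA-Col1a1- they were found in 3.15%, 6.75% and 11.02% of 7323 cells. Ccl5 was found there in 3.66% and Ccl6 in 14.9%.

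**Figure D4:**
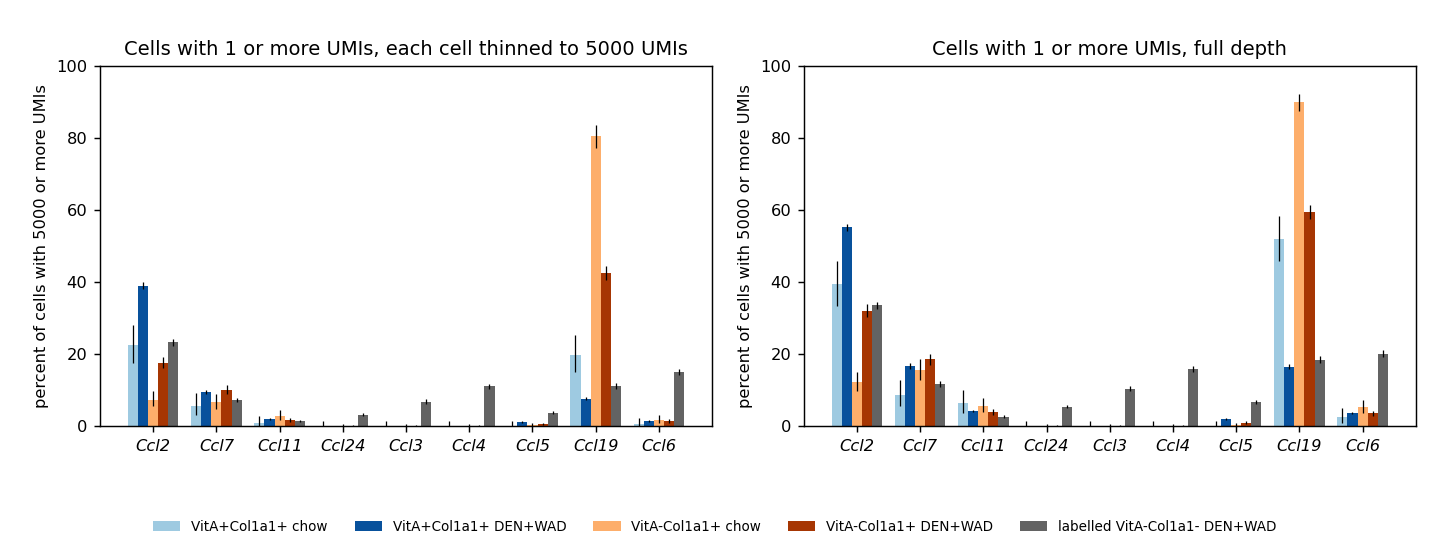
Percent of cells with at least 1 UMI of each member after thinning to 5000 UMIs per cell, in the 5 libraries, with exact Clopper-Pearson 95% intervals. Ccl19 spans 7.56% to 80.4% over the libraries and Ccl2 7.31% to 39.0%, while Ccl24, Ccl3 and Ccl4 are at 0 in the 4 Col1a1+ libraries.

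Cells were then grouped by 4 marker genes, Lrat for HSC, Pecam1 for endothelial cells, C1qa for macrophages and Cd3e for T cells. With 1 or more UMIs of the marker, the library labelled VitA-Col1a1- gave 4891, 3311, 3008 and 147 cells. These classes overlap, and 24.1% of the Lrat-positive cells also held a C1qa UMI, so cells with none of the other 3 markers (exclusive cells) are described beside them and numbered 3053, 1603, 1035 and 94. Stellate, endothelial, macrophage and T cell marker lists, leaving out the marker itself, summed to 9490, 9001, 11054 and 6425 CPM in the exclusive class of that name. Other RNA was present too, with fibroblast markers at 4036 and hepatocyte markers at 1634 in the exclusive Lrat class, and hepatocyte markers at 7260 in the exclusive C1qa class.

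In those exclusive classes Ccl2 was at 514.3 CPM in Lrat, 111 in Pecam1, 151 in C1qa and 269 in Cd3e cells. Ccl2 was thus higher in Lrat cells than in the others, with 0.294 (0.280 to 0.309) of its level in C1qa cells and 0.217 (0.205 to 0.229) in Pecam1 cells. The Cd3e value rests on 1 cell with 128 of the 131 UMIs. Ccl7 was at 73.0 in Lrat, 4.86 in Pecam1, 37.9 in C1qa and 61.7 in Cd3e cells, where 1 cell held 25 of 30 UMIs. Ccl19 was at 73.8, 2.07, 11.003 and 14.4, and Ccl11 at 13.9, 0.319, 4.35 and 0.

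The remaining members were higher in C1qa cells than in Lrat cells. Ccl24 was at 0.588 CPM in Lrat, 1.36 in Pecam1, 81.2 in C1qa and 2.06 in Cd3e cells. Ccl6 was at 9.22, 15.8, 760.2 and 6.17. In C1qa cells Ccl24 was 138-fold (89.8 to 224), Ccl3 137-fold (107 to 177), Ccl4 129-fold (112 to 150) and Ccl6 82.5-fold (73.9 to 92.4) above Lrat cells. With 1 or more C1qa UMIs and no exclusion, Ccl6 was at 504 and Ccl4 at 391, and with 5 or more at 966 and 745.

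Ccl3 was at 1.88, 29.4, 257 and 183 CPM and Ccl4 at 5.43, 54.5, 701 and 808 in Lrat, Pecam1, C1qa and Cd3e cells. Much of the endothelial-marked value is 1 cell of 4695 UMIs with 0 UMIs of C1qa and Ptprc, which held 289 of 369 Ccl3 and 423 of 684 Ccl4 UMIs of that class. Ccl5 was at 9.78, 26.0, 44.3 and 20133, so T cell-marked cells stood 455-fold (416 to 498) above C1qa cells. Ccl4 was at 1.15 (1.04 to 1.27) and Ccl3 at 0.712 (0.570 to 0.880) in the same comparison of Cd3e with C1qa cells.

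**Figure D5:**
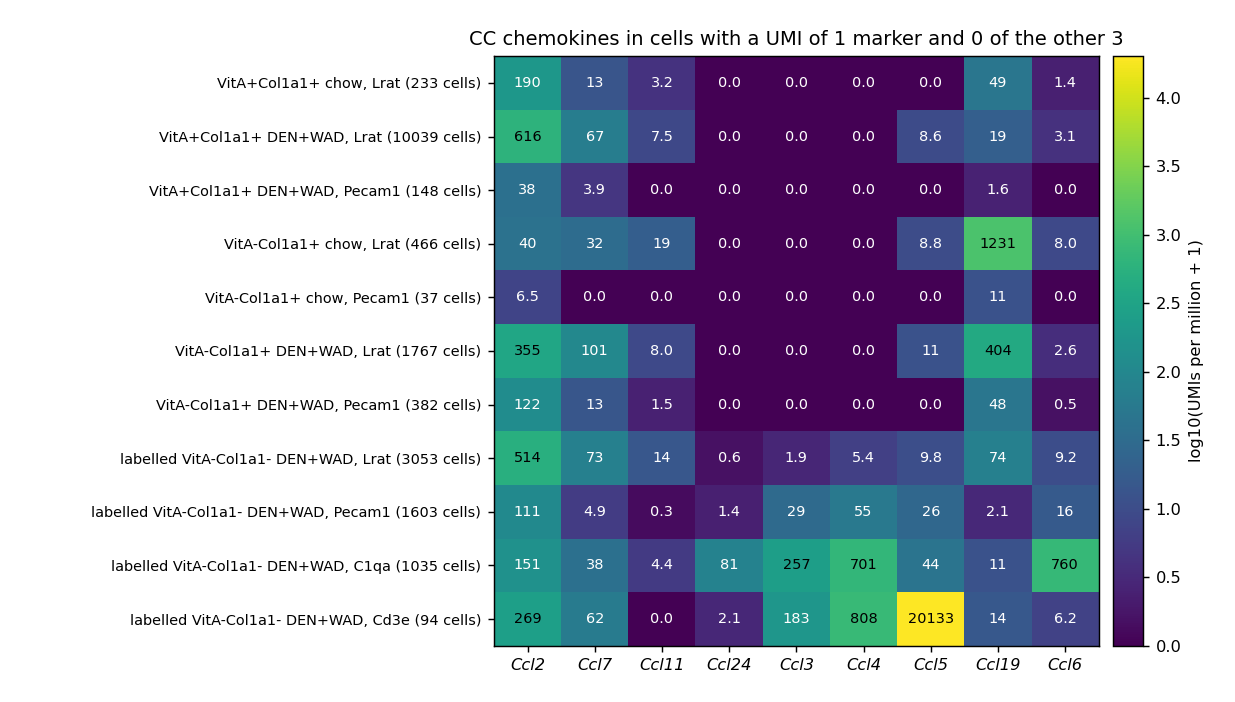
Level of each member (CPM, printed in each cell, colour on a log scale) in the exclusive marker classes of at least 20 cells in the 5 libraries. Values under 0.05 print as 0.0. In the library labelled VitA-Col1a1-, Ccl6, Ccl4, Ccl3 and Ccl24 are high in C1qa cells and Ccl5 in Cd3e cells, while Ccl2, Ccl7, Ccl11 and Ccl19 are higher in Lrat cells than in C1qa cells.

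In the Col1a1+ libraries Ccl2 and Ccl19 also differed between the gates within Lrat-exclusive cells. In VitA-Col1a1+ chow these cells held 441 of the 1271 Ccl2 UMIs, 347 of the 957 of Ccl7 and 203 of the 394 of Ccl11. Much of each thus lay outside these cells. Ccl2 within them was at 616.0 CPM (VitA+Col1a1+) and 355 (VitA-Col1a1+) in the DEN+WAD libraries, and at 189.9 and 40.2 in those of chow livers. Between diets its log2 ratio was 1.70 in the VitA+ gate and 3.14 in the VitA- gate within these cells, and that of Ccl7 was 2.42 and 1.68, all past 2-fold. Ccl19 was at 19.4, 404, 48.8 and 1231 in the same order, so the high Ccl19 of the VitA- gate was found in cells with Lrat RNA also. These cells are of unlike make-up, however. In VitA-Col1a1+ chow they held 6 fibroblast markers at 13058 CPM and 7 stellate markers at 4982, in VitA-Col1a1+ DEN+WAD at 5742 and 13012, and in the VitA+ gate fibroblast markers were at 265.8 to 662.7 beside stellate markers at 23414 and over. The part of this difference in the ratios between diets was not tested. Only 4 and 5 cells of the DEN+WAD libraries held a C1qa UMI, none of the chow cells did, and no cell of the 4 held Cd3e.

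Pecam1-exclusive cells held less Ccl2, Ccl7 and Ccl19 than Lrat-exclusive cells in both DEN+WAD libraries of the Col1a1+ gates. In VitA-Col1a1+ DEN+WAD (382 cells) Ccl2 was at 122, Ccl7 at 13.1 and Ccl19 at 47.6 CPM, ratios to Lrat cells of 0.343 (0.317 to 0.371), 0.130 (0.101 to 0.164) and 0.118 (0.104 to 0.133). In VitA+Col1a1+ DEN+WAD (148 cells) Ccl2 was at 38.1, or 0.0619 (0.0458 to 0.0818) of the Lrat level. VitA+Col1a1+ chow had 9 such cells and was not compared.

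Some members were found more often in cells that held another. After thinning, Ccl7 was found in 16.7% of Ccl2-positive and 4.80% of Ccl2-negative cells of VitA+Col1a1+ DEN+WAD (median depths before thinning 13586 and 13176 UMIs). The same shares were 23.0% and 7.22% in VitA-Col1a1+ DEN+WAD (17418.5 and 16979.5 UMIs). They were 19.9% and 3.34% in the library labelled VitA-Col1a1- (13491 and 10783 UMIs). In VitA-Col1a1+ DEN+WAD, Ccl19 was in 65.8% of Ccl7-positive against 39.8% of Ccl7-negative cells and in 83.3% (35 of 42) of Ccl11-positive against 41.7% of Ccl11-negative cells, while with Ccl2 it was 44.2% against 42.0%. So Ccl19 went with Ccl7 and Ccl11 there, and its shares with and without Ccl2 lie within counting error of each other.

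Among the leukocyte-side members of the library labelled VitA-Col1a1-, Ccl4 was in 70.6% of Ccl3-positive against 6.71% of Ccl3-negative cells (median depths 17301.5 and 11098 UMIs). Ccl6 was in 84.4% of Ccl24-positive against 12.6% of Ccl24-negative cells and in 71.3% of Ccl3-positive against 10.8% of Ccl3-negative cells. Ccl19 went the other way, in 1.62% of Ccl3-positive against 11.7% of Ccl3-negative cells. Depth before thinning was higher in the positive cells of these pairs, and its part was not tested.

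Genes with the most similar pattern were sought over 11 exclusive classes of at least 20 cells, by Pearson r of log2(CPM + 1) among 11343 genes. These classes share libraries and depth, so r is a description only. Ccl3 and Ccl4 were each other's closest gene (r = 0.997), followed for both by Ms4a4c and Laptm5. Ccl24 was closest to Gm5150, Trpm2 and Klra2, Ccl6 to Syk (0.968), Cd180 and Cd300a, and Ccl5 to Def6 (0.964), Sergef and Lsm3. Ccl19 was closest to Cpz (0.968), Podn and Gpc3, and Ccl11 to Plxdc2 (0.978), Cacfd1 and Fat1. Ccl2 was closest to Tmem203 (0.974), Plac8 (0.944) and Rad1, and Ccl7 to Supt3 (0.946), Timm17a and Polr2f. The Cd3e class is among the 11, and its Ccl2 and Ccl7 values each rest mostly on a single cell, as given above.

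The receptors Ccr1, Ccr2 and Ccr7 were nearly absent from the Col1a1+ libraries and lay in leukocyte-marked cells of the other. In its exclusive classes Ccr2 was at 267 CPM in Cd3e and 29.6 in C1qa cells, Ccr7 at 32.9 in Cd3e cells and Ccr1 at 10.7 in C1qa cells. Ccr3 was low in all, at 3.24 in C1qa and 2.47 in Pecam1 cells, and reached 7.66 in Pecam1-exclusive cells of VitA-Col1a1+ DEN+WAD.

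Of 14 CC receptors, signalling and atypical, 3 reached the level filter in the VitA+ gate, none of them past 2-fold between diets. In the VitA- gate 4 reached it and 3 were higher in DEN+WAD, against 5.33% of all genes compared. All of them are atypical receptors that bind chemokines without signalling through G proteins. Ackr1 was at 8.07-fold (5.50 to 12.3), Ackr2 at 7.72-fold (4.77 to 13.4) and Ackr4, which binds Ccl19, at 2.33-fold (1.84 to 2.98). Ackr1 and Ackr2, at 1.80 and 1.13 CPM in chow, reached the filter of this gate only through DEN+WAD, so their calls are tied to their entry. Endothelial markers were also higher there, summing to 1958 CPM in DEN+WAD and 660 in chow, and their part was not tested.

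Among 12 other CC ligands, 2 reached the filter in the VitA+ gate, where Ccl25 was at 2.06-fold (1.39 to 3.19). In the VitA- gate 4 did, and Ccl21a, the other Ccr7 ligand, was at 49.9-fold (13.7 to 413.9), from 317 UMIs against 2 in chow. Its entry past the filter came only through DEN+WAD. Ccl21a has near-identical copies among which reads could be divided, so its value is uncertain. Of 8 NF-kB response genes, 7 reached the filter in the VitA+ gate, Il6 not, and 8 in the VitA- gate. Cxcl1 was past 2-fold in the former (2.24, 2.13 to 2.36) and Vcam1 in the latter (2.30, 2.202 to 2.41), 1 gene in each beside 6.33% and 11.3% of all genes. Of 8 dissociation stress genes, none was past 2-fold in the VitA+ gate and 3 were higher in the VitA- gate (beside 5.33% of all genes), namely Hspa1a, Hspa1b and Dnajb1 (2.84, 2.71 to 2.97). The part of these in the chemokine ratios was not tested.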

How the data were processed

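Cells from 5 sorted liver fractions were captured with a 10x Genomics 3′ kit, whose version differs between label fields. The authors aligned reads to mm10 and made the deposited counts, raw UMIs per gene and barcode, with Cell Ranger 3.1.0 per the methods. The headers of the 4 Col1a1+ libraries name 3.1.0, while 6.1.2 stands in the library labelled VitA-Col1a1-. Deposited barcodes (at least 500 UMIs each) and gene names, of unit other, were used as given. Every barcode was taken as a cell.

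UMIs were summed per library or class in Python 3.11.15 (numpy 2.4.6, scipy 1.17.1, pandas 2.3.3) and scaled to 1e+06 (CPM). Genes with a mean of 2 or more CPM over both libraries were compared, and 2-fold was the call. A library at 0 was set to a floor of 3 UMIs. The code for ratios and calls was checked on simulated counts. edgeR 4.0.16 and DESeq2 1.42.0 in R 4.3.3 supplied scaling factors only. Plots used matplotlib 3.10.9. Identifiers were located in GENCODE M21, where 30934 of 31053 were found. The random seed was 7.

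All 9 members were named, and of each list the 3 genes with the largest ratio past 2-fold in a gate. Members and lists were chosen with earlier results of these data known. Alternatives were TMM and DESeq2 factors, other filters and folds, means over cells, other cell subsets, marker cutoffs and thinning depths. Leaving out the highest cells, the Mgp and Dpt division and the cutoff of 5 marker UMIs were added after seeing the data. Bulk tissue RNA of the study was not used here. A result on 1 listed gene is not reported here.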

Additional observations from a re-analysis of the deposited data

Results flagged for a closer look

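In the comparison of DEN+WAD with chow, 2 members lay past 2-fold in opposite directions in the 2 gates. Of all genes compared, 1.85% were higher in the VitA+ gate and 5.94% lower in the VitA- gate. The share of genes that did both was not counted, so the 2 cannot be set against it. The log2 ratio of Ccl11 was 1.35 in the VitA+Col1a1+ gate and -1.32 in the VitA-Col1a1+ gate. That of Ccl6 was 1.24 in the VitA+Col1a1+ gate and -1.01 in the VitA-Col1a1+ gate. With 1 library per group the difference between gates was not tested. Without the highest 1% of cells of each library Ccl11 was at -0.0018 in the VitA+Col1a1+ gate, and with TMM factors Ccl6 was at -0.93 in the VitA-Col1a1+ gate, not past 2-fold. The VitA+Col1a1+ chow values behind them rest on 18 UMIs of Ccl11 and 8 of Ccl6.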

How the results depend on the processing

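Every group held 1 library, so no library could be left out, and No paired analysis was possible because each group held 1 library and no test was made. In the VitA+ gate 6 members were past 2-fold, and the count was 5 or 6 under every alternative except a filter of 10 CPM and leaving out the highest 1% of cells of each library, which both gave 3 (Ccl2 and Ccl7 higher, Ccl19 lower). The filter leaves fewer genes to compare. In the VitA- gate 4 were past 2-fold, and the count was 2 without cells holding a UMI of Pecam1, C1qa, Cd3e or Ptprc (Ccl2 higher, Ccl19 lower), 2 in cells with 3 or more UMIs of Mgp or Dpt (Ccl2 higher, Ccl11 lower) and 3 to 5 under the others. The Mgp and Dpt division was run in the VitA- gate only. Ccl2 was past 2-fold higher under every alternative run in each gate, and Ccl19 lower under all but the Mgp or Dpt cells. Reversed log2 ratios were -0.0018 for Ccl11 in the VitA+ gate without the highest 1% of cells, and 0.99 for Ccl11 and 0.089 for Ccl6 in the VitA- gate in cells with 0 UMIs of Mgp and Dpt, where chow held 3 UMIs of each in 85 cells. Their cause was not tested. The UMI total limits VitA+Col1a1+ chow most, a library of 259 cells where 3 UMIs are 0.488 CPM.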
